A study of Mus musculus with 9 samples.

Results

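Respiratory complexes III and IV and the cytochrome c that runs between them were followed through 40 nuclear genes in the hippocampus of mice with different doses of IF1, the inhibitory factor of the mitochondrial ATP synthase. The genes were chosen by name: those that begin with Uqcr, those that begin with Cox and a number from 4 upward, and *Cyc1*, *Cycs*, *Surf1*, *Sco1* and *Sco2*. These are 40 of the 31093 gene names on the array and are measured by 58 probes. Each gene is given by its brightest probe. RNA came from the whole hippocampus of male C57BL/6J mice aged 9 months, with 1 mouse per array: 3 IF1-TG mice, 3 IF1-KO mice and 3 controls (CRL). In IF1-KO mice exon 3 of the floxed *Atpif1* gene was deleted by a Cre recombinase driven from the *Camk2a* promoter. This promoter works chiefly in the excitatory neurons of the forebrain, so other cells of the hippocampus keep the gene. IF1-TG mice carried human IF1 under a tetracycline-regulated element together with a transactivator driven by the same promoter. The labels do not name the alleles of the CRL mice. The floxed mice came from a line on a C57BL/6NTac background, bred with a Flp line whose name joins C57BL/6 and SJL. The names of the human IF1 and transactivator lines join C57BL/6 and CBA. The methods state that the mice were kept on C57BL/6J.

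Complex III passes electrons from ubiquinol to cytochrome c, and complex IV passes them from cytochrome c to oxygen, and both pump protons that the ATP synthase uses. The catalytic subunits of complex IV and the cytochrome b of complex III are encoded by mitochondrial DNA and were not analysed here. The genes described below encode nuclear subunits, cytochrome c and factors of assembly. Most of these subunits surround and stabilise the catalytic core, whereas *Cyc1* and *Uqcrfs1* encode subunits of complex III that carry electrons. Several subunits of complex IV exist in a ubiquitous form and in a form named for heart and muscle, lung or testis. Neurons depend on oxidative phosphorylation, and cytochrome oxidase activity has long been used as a histological marker of neuronal activity. The study asked how the dose of IF1 alters neurons, and the array comparison asks whether transcripts of these complexes differed among the genotypes.

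Sequences are shown for the genes on which the comparison turns: *Cox7b2*, which differed most, *Cycs*, and *Cox6b1*, which varied least over the 9 arrays. The 250 bases before the transcription start site, from RefSeq on GRCm38.p6, are given with matches in capitals to GCGCATGC (the core of the NRF-1 motif) or CCGGAAG (an ETS motif of the kind bound by GABP), on either strand. Both factors are known regulators of respiratory chain genes.
*Cox7b2* (chr5:71548206-71548455, minus strand): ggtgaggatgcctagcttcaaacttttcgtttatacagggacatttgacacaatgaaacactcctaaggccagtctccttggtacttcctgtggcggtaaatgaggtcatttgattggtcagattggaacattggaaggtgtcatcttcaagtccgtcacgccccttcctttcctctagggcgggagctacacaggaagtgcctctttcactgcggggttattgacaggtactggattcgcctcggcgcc
*Cycs* (chr6:50566570-50566819, minus strand): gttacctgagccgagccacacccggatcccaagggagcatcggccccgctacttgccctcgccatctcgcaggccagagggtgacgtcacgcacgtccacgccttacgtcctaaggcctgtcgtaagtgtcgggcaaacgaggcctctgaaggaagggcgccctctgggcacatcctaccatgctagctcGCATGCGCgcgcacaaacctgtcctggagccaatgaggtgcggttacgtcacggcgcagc
*Cox6b1* (chr7:30626115-30626364, minus strand): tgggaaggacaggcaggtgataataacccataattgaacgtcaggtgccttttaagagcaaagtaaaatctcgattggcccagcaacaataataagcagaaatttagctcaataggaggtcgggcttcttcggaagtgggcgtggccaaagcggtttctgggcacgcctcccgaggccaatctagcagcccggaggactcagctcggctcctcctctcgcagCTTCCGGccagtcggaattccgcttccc
The *Cycs* window holds an NRF-1 match 60 bases before the start and the *Cox6b1* window an ETS match 28 bases before it, both on the opposite strand, and neither motif is in the *Cox7b2* window. Promoters were matched for 29 of the 40 genes (30 windows). CCGGAAG was in 9 of these windows (30%) and in 6.91% of all 32851 windows of this length, and GCGCATGC was in 2 (6.67%) and in 2.26% of all. The windows with CCGGAAG belong to *Cox6a1*, *Cox6b1*, *Uqcr11*, *Uqcrh*, *Cox10*, *Cox16*, *Cox20* and *Sco1*. These are matches of letters only.

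The array probes are 60 bases long, and the first 30 bases are shown for the probe of *Cox7b2* and for the 3 probes of *Cycs*, because the *Cycs* probes did not give the same result.
*Cox7b2*: gactttgcagatctctgaaaacagacctgt
*Cycs*, brightest probe, chr19:24950645-24950704: atgaatggctagcaatgtttttgttggaca
*Cycs*, second probe, chr19:24951215-24951274: aattgtccttaaatacccactcagaaacac
*Cycs*, probe on its own chromosome, chr6:50512563-50512622: cgttacacttacatattcattttaaccact
Probe positions are those of the array annotation on mm9. The *Cox7b2* probe has no position there. Of the 58 probes 54 have one, and 10 of these lie on another chromosome than the RefSeq gene of the same name, among them the brightest probes of *Cycs* and *Cox7c*. From which locus these 2 genes were measured is therefore uncertain.

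Values are log2 signals relative to the 75th percentile of their own array. A difference is given as a log2 difference with its standard error (SE) from a limma fit of all 9 arrays, and a gene was called when it met both thresholds of the study, 1.5-fold or more and *P* below 0.05 without adjustment. The arrays lay on 3 slides. IF1-TG replicates 1 and 2 shared slide 1, all genotypes met on slide 2 (CRL replicates 1 and 2, IF1-TG replicate 3 and IF1-KO replicate 1), and the remainder lay on slide 3. Within a genotype arrays correlated at 0.983 to 0.992, and 71% to 72.9% of probes were well above background on the IF1-KO arrays, 72.2% to 74.9% on the CRL arrays and 66.7% to 69.5% on the IF1-TG arrays. *Atpif1*, the targeted gene, stood at 6.19 to 6.34 in CRL mice and, by label, at 6.44 in IF1-KO replicate 1, 5.20 in IF1-KO replicate 2 and 5.53 in IF1-KO replicate 3. The label of IF1-KO replicate 1 is therefore not borne out by its *Atpif1* signal, and the counts that involve IF1-KO mice are also given without it. The IF1-TG arrays, at 6.39 to 6.51, lay slightly above the CRL arrays (log2 difference 0.16, SE 0.27), and whether the mouse probe detects the human transcript was not tested. The summed linear signal of 8 markers of excitatory hippocampal neurons was 69.4 to 77.7 on IF1-KO arrays, 71.3 to 83 on CRL arrays and 81 to 83.5 on IF1-TG arrays. Their median log2 difference from CRL was 0.02 in IF1-TG and -0.04 in IF1-KO mice. In the same order, microglia markers summed to 44.1 to 51.3, 51.2 to 58.4 and 54.9 to 64.6. Oligodendrocyte markers gave 85.1 to 126, 114 to 151 and 125 to 154. Astrocyte markers gave 24.8 to 28, 26.4 to 28.6 and 26.9 to 29.9. Interneuron markers gave 71.1 to 79.5, 68.2 to 82.3 and 38.3 to 82.7. Fewer cells of a type and less RNA per cell cannot be told apart in these bulk samples. Choroid plexus markers were high on 1 array of each genotype, IF1-KO replicate 3, CRL replicate 2 and IF1-TG replicate 1.

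Of the 40 genes, 38 exceeded background clearly on every array of 1 or more genotypes. *Cox17*, a copper chaperone, and *Cox8c*, the testis form of subunit VIII, were not well above background on any array. The 38 genes varied little, with a median residual SD of 0.179 on the log2 scale, against 0.242 over all 21898 genes tested. As the plot of the differences with their intervals shows, the differences of the nuclear genes of complexes III and IV were centred near 0. The median log2 difference of the 38 genes was -0.01 between IF1-TG and CRL mice, 0.00 between IF1-KO and CRL mice and -0.02 for IF1-TG against IF1-KO mice. Over all genes it was 0.00, -0.01 and 0.01. The 95% interval of the difference lay within a 1.5-fold change either way for 21, 25 and 21 of the 38 genes in these comparisons (55.3%, 65.8% and 55.3%), beside 45.7%, 50.5% and 46.5% of all genes.

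**Figure D1:**
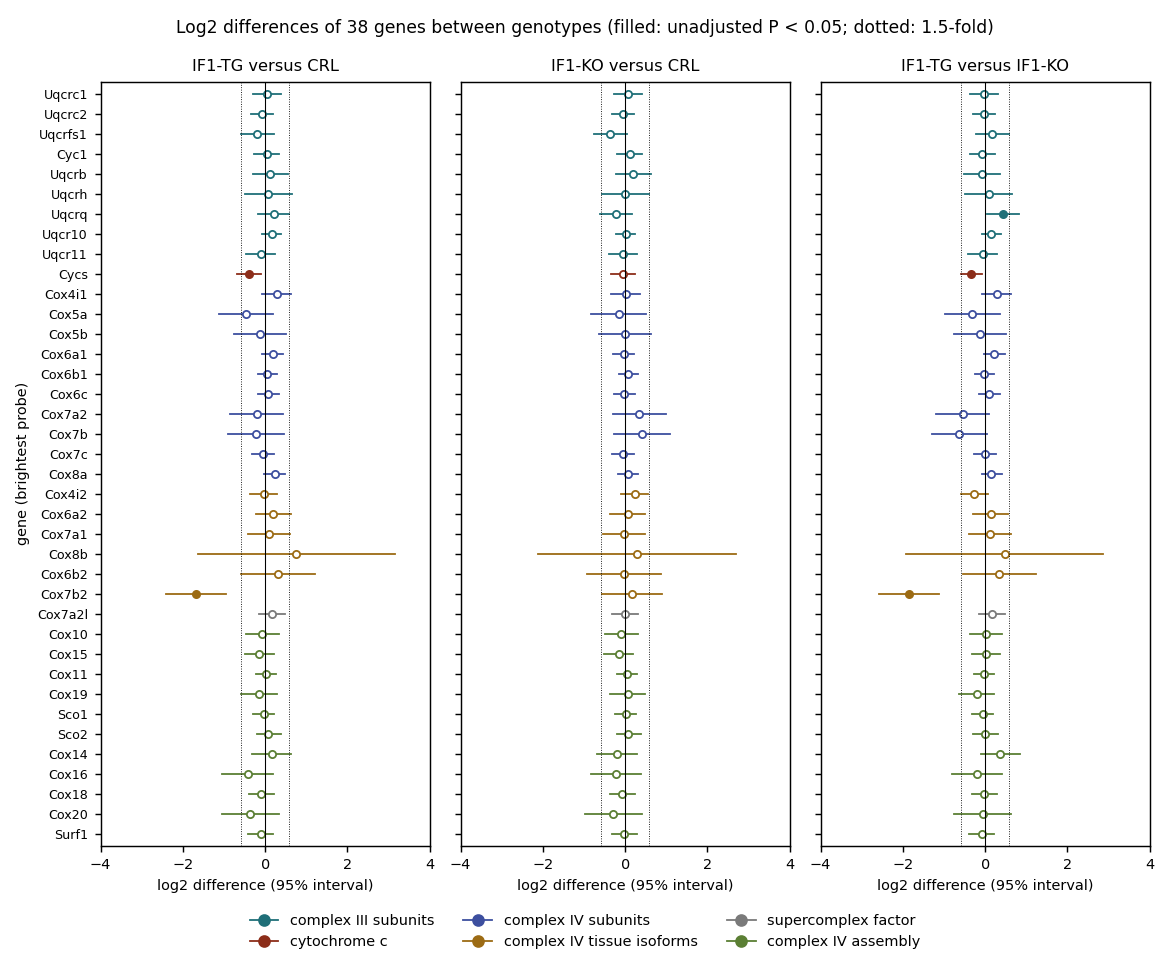
Log2 difference (x axis) with its 95% interval from limma for each of the 38 genes measured (y axis, brightest probe), in the 3 comparisons of genotypes and coloured by the role of the gene. Filled points had an unadjusted P value below 0.05 and dotted lines mark a 1.5-fold change. Most points lie near 0, and Cox7b2 stands at -1.68 against CRL and -1.85 against IF1-KO.

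Between IF1-TG and CRL mice, 1 of the 38 genes was called, *Cox7b2*, where 4.32% of all 21898 genes were called. At an unadjusted *P* value below 0.05 alone, *Cox7b2* and *Cycs* were lower in IF1-TG mice (2 of 38, background 8.07%). IF1-TG and CRL arrays were without overlap at 6 genes (background 12%): *Cox6a1*, *Cox6a2*, *Cox8a* and *Uqcr10* were above and *Cox7b2* and *Cycs* below. Between IF1-KO and CRL mice 0 of the 38 genes were called (background 1.02%) and 0 had an unadjusted *P* value below 0.05 in limma (background 2.56%), while the arrays did not overlap at *Cox7a2*, which was above, and *Uqcrfs1*, which was below (background 7.96%). Between IF1-TG and IF1-KO mice *Cox7b2* alone was called (background 3.71%), *Cox7b2* and *Cycs* were lower and *Uqcrq* higher at an unadjusted *P* value below 0.05 (background 6.91%), and arrays did not overlap at 7 genes (background 13.5%), the 5 above being *Cox4i1*, *Cox6a1*, *Cox8a*, *Uqcr10* and *Uqcrq*. For *Cox4i1* the nearest arrays, IF1-KO replicate 2 and IF1-TG replicate 3, both read 6.99 and part only beyond the digits shown. None of the 38 genes passed the Benjamini-Hochberg adjustment in limma, which ran over all 27993 probes kept, and the smallest adjusted *P* values were 0.329, 1 and 0.449. These comparisons share arrays. The counts rested on single arrays, and each is given here with the share of all genes under the same choice. Without IF1-TG replicate 3 the genes at an unadjusted *P* value below 0.05 came to 5 against CRL (8.59% of all genes) and 7 against IF1-KO mice (9.03%), and the called genes to 2 (with *Cox5a*, 5.66%) and 4 (with *Cox5a*, *Cox7a2* and *Cox7b*, 5.80%). Between IF1-KO and CRL mice 3 genes had an unadjusted *P* value below 0.05 without CRL replicate 3 (*Cox7b*, *Uqcrfs1* and *Uqcrq*, 6.55%), of which *Cox7b* was called (3.53%). It was 1 without IF1-KO replicate 1 (*Cox14*, 3.17%) and 1 without IF1-TG replicate 3 (*Uqcrfs1*, 2.77%). Without IF1-TG replicate 1 *Cox16* was also called against CRL (3.83%). Called genes in IF1-TG against IF1-KO mice came to 3 without IF1-KO replicate 1 (with *Cox14* and *Cox7b*, 4.60%) and to 2 without CRL replicate 2 (3.57%) or CRL replicate 3 (3.79%), with *Cox7b*. Without IF1-KO replicate 1, 4 genes had an unadjusted *P* value below 0.05 there (7.55%). Without CRL replicate 1 *Cycs* no longer had one against CRL, which left 1 gene (5.81%). With the array labelled IF1-KO replicate 1 left out, arrays were without overlap at 7 genes between IF1-KO and CRL mice (*Cox14*, *Cox4i2*, *Cox5a*, *Cox7a2*, *Cox7b*, *Sco2* and *Uqcrfs1*), where 21.2% of all genes were, and at 12 in IF1-TG against IF1-KO mice, where 27.5% of all genes were. A separation of 3 from 2 arrays is met more often than one of 3 from 3.

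*Cox7b2* encodes the testis form of subunit VIIb of complex IV. Its signal was -3.39, -3.58 and -3.70 on the IF1-KO arrays, -3.73, -3.96 and -3.47 on the CRL arrays and -6.06, -4.65 and -5.50 on the IF1-TG arrays. All 3 IF1-TG arrays lay below every other array, while IF1-KO and CRL arrays overlapped. The IF1-TG mice were lower than CRL mice (log2 difference -1.68, SE 0.32, adjusted *P* = 0.329 from limma) and lower than IF1-KO mice (-1.85, SE 0.32, adjusted *P* = 0.449 from limma). Both met the unadjusted threshold and missed the adjusted one. IF1-KO and CRL mice differed by 0.16 (SE 0.32, 95% interval -0.56 to 0.89). Within slide 2 IF1-TG replicate 3 differed from the mean of the CRL arrays by -1.66 and from IF1-KO replicate 1 by -2.11. Under the 19 alternative settings and array choices in which the gene could be tested, the difference ranged from -2.06 to -0.84 against CRL and from -2.23 to -1.06 against IF1-KO mice, each at an unadjusted *P* value below 0.05. The lowest sizes, -0.84 and -1.06, came with normexp background correction, so the size depends on how background is treated. The probe is dim and was well above background on all IF1-KO and CRL arrays but on 2 of the 3 IF1-TG arrays, so it passed the filter through the genotypes where it was high, and fewer probes were well above background on the IF1-TG arrays as a whole. Over the 1990 genes whose mean signal lay within 0.5 of that of *Cox7b2*, the median difference between IF1-TG and CRL mice was -0.01 and that from IF1-KO mice -0.02. The part of dimness in the difference of *Cox7b2* was not tested.

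The neighbours of *Cox7b2* on chromosome 5 were read in the RefSeq gene order, a choice made after its values had been seen. Of the 10 protein-coding genes on each side, 13 of the 20 were measured above background, and 1 was called in IF1-TG against CRL mice (4.32% of all genes), 1 in IF1-TG against IF1-KO mice (3.71%) and 0 in IF1-KO against CRL mice (1.02%). A count of 1 in 13 is near these shares. In both cases it was *Gabra2*, the adjacent gene, which encodes the alpha 2 subunit of the GABA-A receptor. *Gabra2* stood at -0.27, -0.87 and -0.33 on the IF1-KO arrays, -0.09, -0.45 and -0.51 on the CRL arrays and 0.34, 0.68 and 0.72 on the IF1-TG arrays. It was thus above every other array on the 3 arrays where *Cox7b2* was below (log2 difference from CRL 0.93, SE 0.20, and from IF1-KO 1.07, SE 0.20). *Gabra4*, adjacent on the other side, differed by -0.26 (SE 0.22) from CRL, and *Gabrb1* after it by 0.05 (SE 0.14). *Commd8*, the next gene, gave 0.23, 0.76 and 0.89 on the IF1-KO arrays, 0.14, 0.62 and 0.92 on the CRL arrays and 1.01, 1.18 and 0.99 on the IF1-TG arrays. Its IF1-TG arrays lay above all others, though it was not called (0.50, SE 0.23, from CRL and 0.43, SE 0.23, from IF1-KO). *Kctd8*, on the side of *Gabra2*, went the other way (-0.47, SE 0.23, from CRL and -0.42, SE 0.23, from IF1-KO), with its IF1-TG arrays below all IF1-KO arrays. Arrays were without overlap at 12% of all genes against CRL and 13.5% against IF1-KO. C57BL/6J mice are known to carry a private intronic deletion in *Gabra2* that lowers its expression. Whether the IF1-TG mice carried a chromosome 5 segment of another strain was not tested.

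**Figure D2:**
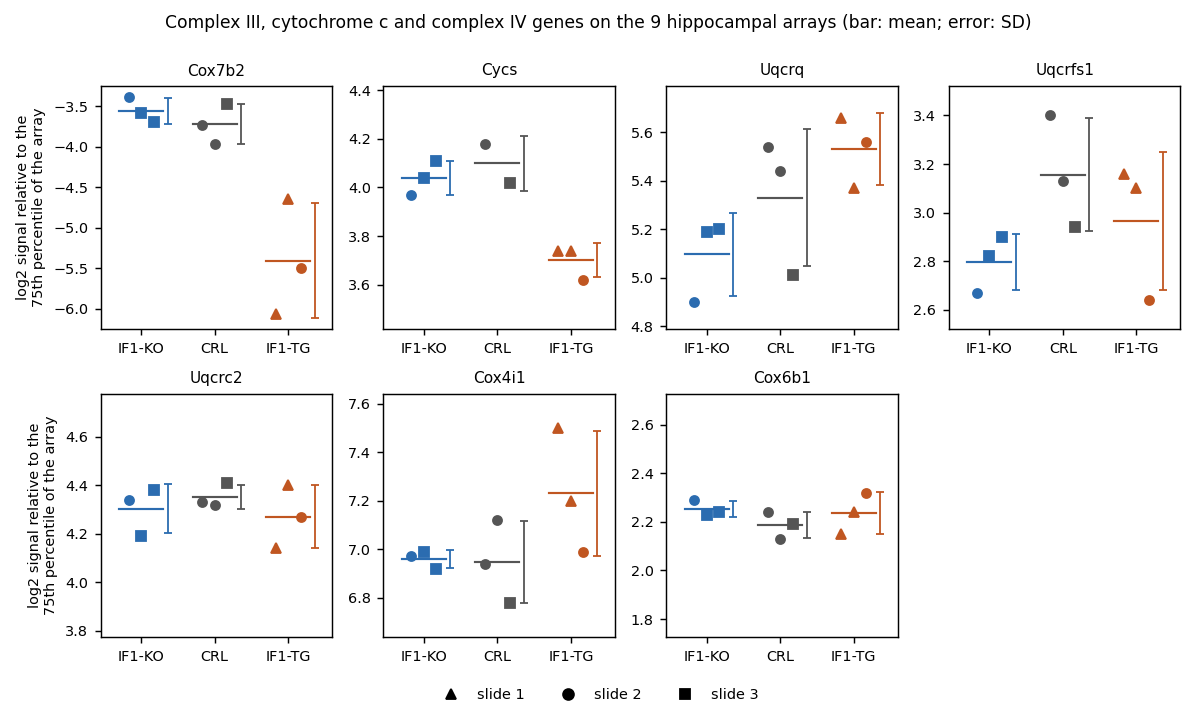
Log2 signal, scaled to the 75th percentile of each array (y axis, a scale of its own in each panel) of 7 genes on the 9 arrays, by genotype (x axis), with marker shape for the slide, bars for means and error bars for the SD. The 3 IF1-TG arrays of Cox7b2 lie between -6.06 and -4.65, below all others, and those of Cycs between 3.62 and 3.74, while Cox6b1 stays between 2.13 and 2.32 on all arrays.

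*Cycs* encodes somatic cytochrome c, the mobile electron carrier that also triggers the caspase cascade when released from mitochondria. Its brightest probe gave 3.97, 4.04 and 4.11 on the IF1-KO arrays, 4.18 and 4.02 on CRL replicates 1 and 3, and 3.74, 3.74 and 3.62 on the IF1-TG arrays. The spot of CRL replicate 2 was marked as an outlier and left out, so 8 arrays entered the fit. On this probe IF1-TG mice were 1.32-fold lower than CRL mice (-0.40, SE 0.13, adjusted *P* = 0.508 from limma) and 1.26-fold lower than IF1-KO mice (-0.34, SE 0.11, adjusted *P* = 0.661 from limma). The IF1-TG arrays lay below all others. The other probes gave smaller differences that were not at an unadjusted *P* value below 0.05. The second probe on chromosome 19 gave -0.21 against CRL (SE 0.31) and the probe on chromosome 6, which is the chromosome of the RefSeq gene, gave -0.16 (SE 0.10). Between IF1-TG and IF1-KO mice these probes gave -0.08 (SE 0.31) and -0.03 (SE 0.10). With the mean of the 3 probes, for which CRL replicate 2 was left out, the difference from CRL was -0.33. Without CRL replicate 1 that of the brightest probe was -0.32, and neither was at an unadjusted *P* value below 0.05. The difference from IF1-KO mice was -0.15 with the mean of the probes. The latter comparison had an unadjusted *P* value below 0.05 in 14 of 19 alternative settings and array choices.

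Among complex III genes, *Uqcrq*, a small supernumerary subunit, was the one with an unadjusted *P* value below 0.05. It stood at 4.90, 5.19 and 5.20 on the IF1-KO arrays, 5.54, 5.44 and 5.01 on the CRL arrays and 5.66, 5.37 and 5.56 on the IF1-TG arrays. The IF1-TG arrays were all above the IF1-KO arrays and overlapped the CRL arrays. IF1-TG mice were 1.35-fold above IF1-KO mice (0.44, SE 0.17, adjusted *P* = 0.682 from limma), and IF1-TG and CRL mice differed by 0.21 (SE 0.17, adjusted *P* = 0.759 from limma). Its second probe, placed on chromosome 1, gave 0.00 (SE 0.12) between IF1-TG and IF1-KO mice. The difference had an unadjusted *P* value below 0.05 in 11 of 20 alternative settings and array choices, and without IF1-KO replicate 1 it was 0.34 and no longer so.

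*Uqcrfs1* encodes the Rieske iron-sulfur protein, which takes the first electron from ubiquinol. Its signal was 2.67, 2.82 and 2.90 on the IF1-KO arrays, 3.40, 3.13 and 2.94 on the CRL arrays and 3.16, 3.10 and 2.64 on the IF1-TG arrays. The IF1-KO arrays lay below the CRL arrays by a narrow gap, and the IF1-TG arrays overlapped both. The difference between IF1-KO and CRL mice was -0.36 (SE 0.18, 95% interval -0.76 to 0.05, adjusted *P* = 1 from limma). It was -0.59 within slide 2, where the IF1-KO array is replicate 1, whose *Atpif1* was not reduced, and -0.08 within slide 3, with 2 IF1-KO arrays and 1 CRL array. IF1-TG and CRL mice differed by -0.19 (SE 0.18, adjusted *P* = 0.804 from limma). This difference ranged from -0.53 to -0.02 in 20 alternative settings and array choices, of which 1 had an unadjusted *P* value below 0.05. That was the slide as a fixed block, at -0.53. Within slide 2, with 1 IF1-TG array, the difference between IF1-TG and CRL mice was -0.62. *Uqcrc2*, a core protein of the matrix arm, read 4.34, 4.19 and 4.38 on the IF1-KO arrays, 4.33, 4.32 and 4.41 on the CRL arrays and 4.14, 4.40 and 4.27 on the IF1-TG arrays, with all genotypes overlapping. Its difference was -0.08 (SE 0.11, 95% interval -0.34 to 0.18) between IF1-TG and CRL mice and -0.05 (SE 0.11) between IF1-KO and CRL mice. The other core protein gene, *Uqcrc1*, and *Cyc1*, the gene of cytochrome c1, differed from CRL by 0.05 (SE 0.15) and 0.04 (SE 0.13) in IF1-TG mice and by 0.08 (SE 0.15) and 0.11 (SE 0.13) in IF1-KO mice. Over the 9 complex III genes the differences ranged from -0.19 to 0.21 between IF1-TG and CRL mice, from -0.36 to 0.20 between IF1-KO and CRL mice and from -0.08 to 0.44 for IF1-TG against IF1-KO mice, with 0 called. Of all genes 4.32%, 1.02% and 3.71% were called in these comparisons, shares at which 9 genes hold few.

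*Uqcr10*, another small subunit of complex III, showed how far neighbouring probes of the same transcript can part. Its brightest probe, chr11:4601972-4602031, and its second probe, chr11:4601979-4602038, share 53 of their 60 bases, and the last 23 bases of each are shown with the 7 bases found only in the brightest probe in capitals.
*Uqcr10*, brightest probe: atgcaaagtgctcatgAGACCGG
*Uqcr10*, second probe: caaataaatgcaaagtgctcatg
The brightest probe was steady, at 4.50, 4.48 and 4.53 on the IF1-KO arrays, 4.53, 4.52 and 4.45 on the CRL arrays and 4.65, 4.59 and 4.73 on the IF1-TG arrays. The second probe gave 4.53, 4.88 and 4.85, then 3.96, 4.01 and 4.83, and then 3.71, 4.48 and 4.51 on the same arrays. The difference between IF1-TG and IF1-KO mice was therefore 0.15 (SE 0.10) on the brightest and -0.52 (SE 0.29) on the second probe. The probe on chromosome 19 gave 0.07 (SE 0.13). The cause was not tested, and a gene of this set with a single probe has no such check. Other genes with discordant probes were *Cox16*, an assembly factor (-0.42, SE 0.27, on the brightest and 0.39, SE 0.15, on the dimmer probe between IF1-TG and CRL mice), and *Cox7c* (-0.06, SE 0.12, on chromosome 14 and 0.69, SE 0.29, on chromosome 17). This dimmer *Cox7c* probe met both thresholds of a call.

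**Figure D3:**
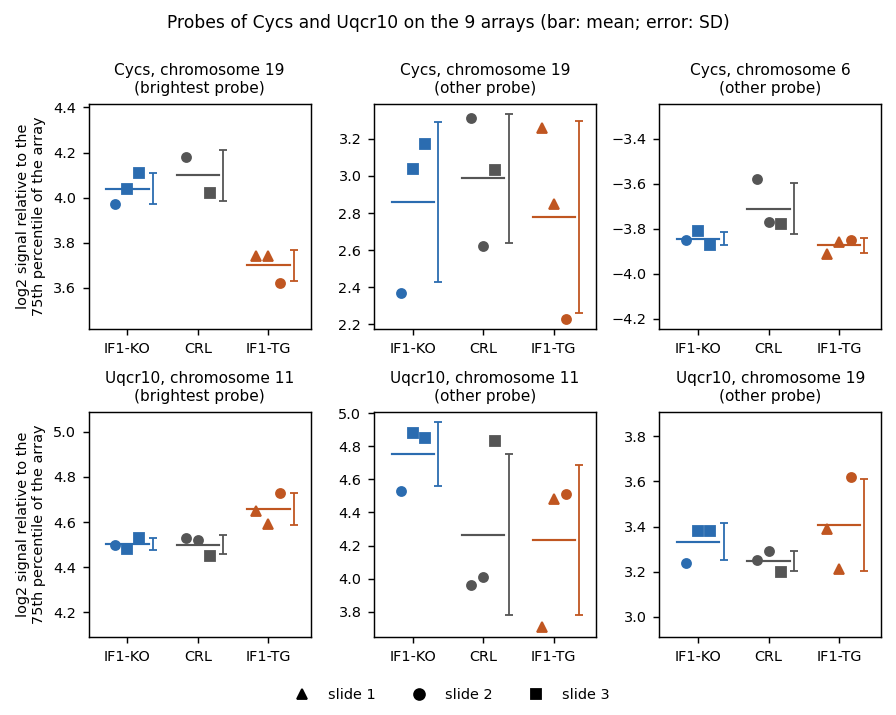
Log2 signal, scaled to the 75th percentile of each array (y axis, a scale of its own in each panel) of the 3 probes of Cycs and the 3 probes of Uqcr10, by genotype (x axis), with marker shape for the slide, bars for means and error bars for the SD. The drop of the IF1-TG arrays is seen on the brightest Cycs probe, and the second Uqcr10 probe spreads from 3.71 to 4.88 where the brightest stays between 4.45 and 4.73.

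The ubiquitous nuclear subunits of complex IV comprised 10 genes, of which 0 were called in any comparison by their brightest probes. Of all genes 4.32% were called between IF1-TG and CRL, 1.02% between IF1-KO and CRL and 3.71% between IF1-TG and IF1-KO mice. At these shares a list this short holds few called genes. *Cox4i1*, subunit IV, stood at 6.97, 6.99 and 6.92 on the IF1-KO arrays, 6.94, 7.12 and 6.78 on the CRL arrays and 7.50, 7.20 and 6.99 on the IF1-TG arrays. The IF1-TG arrays reached highest, and the lowest of them was within the CRL range. The difference was 0.29 between IF1-TG and CRL mice (SE 0.15, 95% interval -0.07 to 0.64, adjusted *P* = 0.657 from limma) and 0.01 between IF1-KO and CRL mice (SE 0.15). With the slide as a fixed block the first difference was 0.00, and with quantile normalization it was 0.10 (SE 0.14). Without IF1-TG replicate 3, the only IF1-TG array that shares a slide with other genotypes, it was 0.41, at an unadjusted *P* value below 0.05. *Cox6b1*, subunit VIb, gave 2.29, 2.23 and 2.24, then 2.24, 2.13 and 2.19, and then 2.15, 2.24 and 2.32 on the IF1-KO, CRL and IF1-TG arrays. These arrays all overlapped within a range of 0.19. Its difference was 0.05 (SE 0.10, 95% interval -0.18 to 0.28) between IF1-TG and CRL mice and 0.07 (SE 0.10, 95% interval -0.16 to 0.30) between IF1-KO and CRL mice. By their brightest probes *Cox6a1*, subunit VIa, and *Cox8a*, subunit VIII, were above CRL on all 3 IF1-TG arrays, by 0.19 (SE 0.11, adjusted *P* = 0.677 from limma) and 0.23 (SE 0.11, adjusted *P* = 0.607 from limma). For *Cox6a1* the nearest arrays read 7.69 (IF1-TG) and 7.67 (CRL). The second *Cox8a* probe, almost as bright, gave 0.13 (SE 0.10), with IF1-TG replicate 2 and CRL replicate 2 both at 7.11.

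Among the 10 ubiquitous complex IV subunits, *Cox5a*, *Cox7b*, *Cox7a2* and *Cox5b* had the widest ranges over the arrays (1.34, 1.26, 1.18 and 1.16), and those of the others were 0.19 to 0.73. *Cox7b*, the ubiquitous subunit VIIb, gave 4.71, 5.31 and 5.21 on the IF1-KO arrays, 4.78, 4.05 and 5.19 on the CRL arrays and 4.26, 4.35 and 4.75 on the IF1-TG arrays. *Cox7a2*, subunit VIIa, gave 3.89, 3.73 and 3.72, then 3.62, 3.00 and 3.68, and then 2.71, 3.16 and 3.81. The lowest values of both were on CRL replicate 2 and on IF1-TG replicates 1 and 2, which are the arrays of slide 1, whereas IF1-TG replicate 3 read like the other genotypes. *Cox5a*, subunit Va, was lowest on IF1-TG replicates 2 and 1 (4.77 and 5.42, where the other arrays lay at 5.58 to 6.11). *Cox5b*, subunit Vb, was lowest on IF1-TG replicate 1 and CRL replicate 2 (4.15 and 4.66, where the others lay at 4.86 to 5.31). Between IF1-TG and IF1-KO mice the differences were -0.63 (SE 0.30, adjusted *P* = 0.711 from limma) for *Cox7b* and -0.55 (SE 0.28, adjusted *P* = 0.716 from limma) for *Cox7a2*. Without IF1-TG replicate 3 *Cox7b*, *Cox7a2* and *Cox5a* were called. Within slide 2 the same comparison gave 0.04 for *Cox7b*, -0.08 for *Cox7a2* and 0.05 for *Cox5a*, where the IF1-KO array is again replicate 1. Against the CRL arrays of slide 2 IF1-TG replicate 3 stood at 0.33 for *Cox7b*, 0.50 for *Cox7a2* and 0.00 for *Cox5a*. Slide 1 held IF1-TG arrays only, so that slide and the genotype cannot be told apart there.

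**Figure D4:**
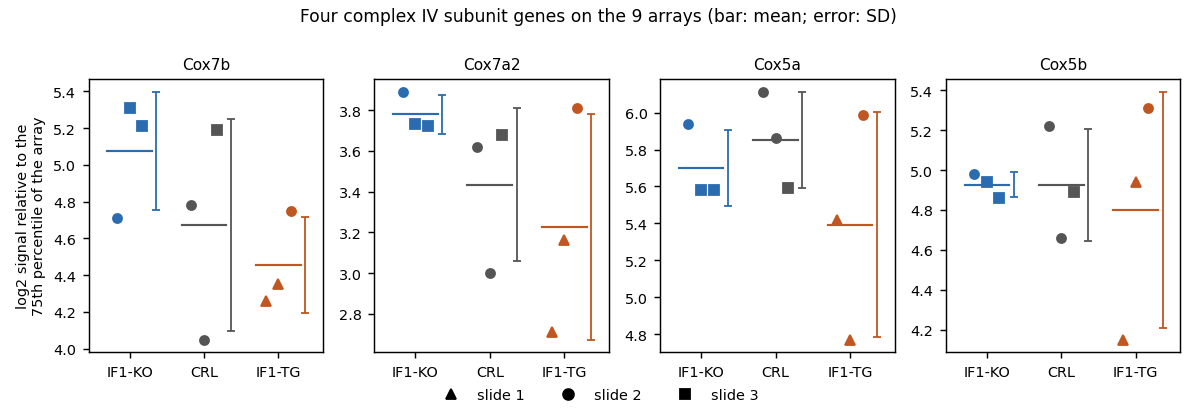
Log2 signal, scaled to the 75th percentile of each array (y axis, a scale of its own in each panel) of Cox7b, Cox7a2, Cox5a and Cox5b on the 9 arrays, by genotype (x axis), with marker shape for the slide, bars for means and error bars for the SD. The IF1-TG arrays of slide 1 (triangles) reach down to 4.26, 2.71, 4.77 and 4.15, whereas the IF1-TG array of slide 2 (circle) reads 4.75, 3.81, 5.99 and 5.31.

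Of the 7 tissue forms of complex IV subunits, 6 were measured above background in the hippocampus. Of these *Cox7b2* alone was called, in IF1-TG against CRL mice (4.32% of all genes) and against IF1-KO mice (3.71%). Between IF1-KO and CRL mice 0 of them were called (1.02%). *Cox4i2*, the lung form of subunit IV, which responds to low oxygen, differed by -0.04 (SE 0.14) between IF1-TG and CRL mice and 0.23 (SE 0.14) between IF1-KO and CRL mice. *Cox6a2* and *Cox7a1*, forms of heart and muscle, differed from CRL by 0.19 (SE 0.18) and 0.09 (SE 0.22) in IF1-TG mice and by 0.06 (SE 0.18) and -0.03 (SE 0.22) in IF1-KO mice. *Cox8b*, the heart and muscle form of subunit VIII, had the widest range of the set, 3.91, and was described for that reason after its values had been seen. It gave -1.96, -1.87 and 0.75 on the IF1-KO arrays, -1.45, -0.19 and -2.30 on the CRL arrays and 1.61, -1.75 and -1.53 on the IF1-TG arrays. The difference between IF1-TG and CRL mice was 0.76 (SE 1.05). It was -0.23 with the slide as a fixed block and -0.32 without IF1-TG replicate 1. Without the 3 arrays high in choroid plexus markers it was 0.24 (SE 0.30). A single array of each genotype was high, and the genotypes overlapped.

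These arrays, IF1-KO replicate 3, CRL replicate 2 and IF1-TG replicate 1, were also the ones with high choroid plexus markers. *Ttr*, the transthyretin gene, stood there at 6.44, 6.75 and 7.28 and at 0.25 to 3.13 on the other arrays, and *Folr1* at 1.85, 2.51 and 3.41 and elsewhere at -2.57 to -1.31. Each of the 6 choroid plexus markers was higher on these 3 arrays than on the other 6, and their summed linear signal ran from 1.95 to 95.3 on IF1-KO, 2.89 to 118 on CRL and 4.70 to 179 on IF1-TG arrays. *Cox6b2*, the testis form of subunit VIb, was highest on the same arrays, at 0.08, 0.61 and 0.78, though it was not far behind at 0.05 on IF1-TG replicate 2 and 0.01 on IF1-KO replicate 1. The summed signal of 6 skeletal muscle or heart markers ran from 4.45 to 8.71, 4.90 to 6.35 and 3.72 to 6.79 in the genotypes in the same order, and *Ckm*, the muscle creatine kinase, did not rise clearly above background on any array. The part of choroid plexus tissue in these values was not tested. Without these 3 arrays, 2 genes were called between IF1-TG and CRL mice (*Cox7b2* and *Cox16*, where 3.97% of all genes were) and *Cox7b2* alone in IF1-TG against IF1-KO mice, where 2.87% were.

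**Figure D5:**
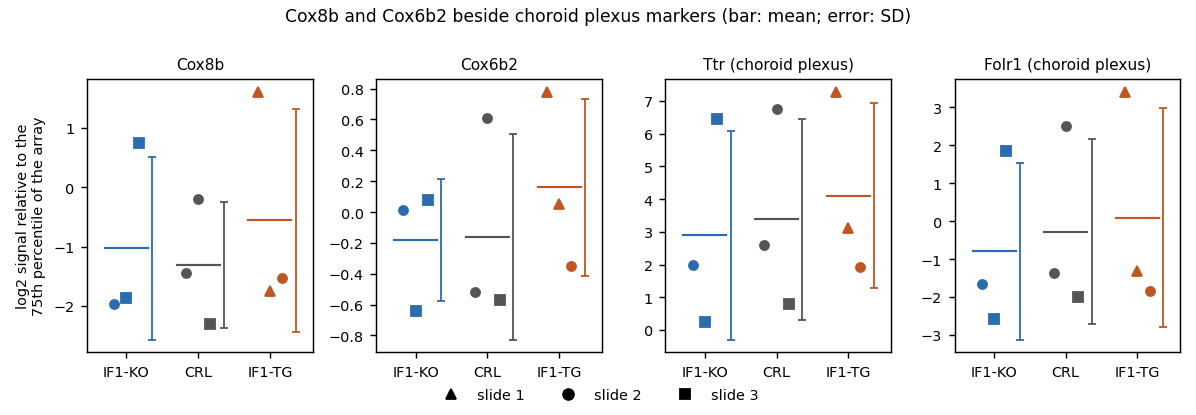
Log2 signal, scaled to the 75th percentile of each array (y axis, a scale of its own in each panel) of Cox8b, Cox6b2 and the choroid plexus markers Ttr and Folr1 on the 9 arrays, by genotype (x axis), with marker shape for the slide, bars for means and error bars for the SD. In each genotype the same array is highest in all panels, with Cox8b at 0.75, -0.19 and 1.61 and Ttr at 6.44, 6.75 and 7.28.

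Assembly factors of complex IV insert its copper and heme and join its subunits. Of 12 genes 11 were measured and 0 were called, with differences from -0.42 to 0.17 between IF1-TG and CRL mice, from -0.29 to 0.08 between IF1-KO and CRL mice and from -0.21 to 0.37 between IF1-TG and IF1-KO mice. Of all genes 4.32%, 1.02% and 3.71% were called in the same comparisons, shares at which 11 genes hold few. *Surf1*, needed for the assembly of subunit 1 and mutated in Leigh syndrome, differed by -0.10 (SE 0.13) and -0.02 (SE 0.13) from CRL in IF1-TG and IF1-KO mice. The copper chaperones *Sco1* and *Sco2* differed by -0.04 (SE 0.11) and 0.08 (SE 0.13) in IF1-TG mice, and *Cox10* and *Cox15*, enzymes of heme A synthesis, by -0.07 (SE 0.17) and -0.14 (SE 0.15). *Cox20*, the chaperone of subunit 2, read 0.52 on IF1-TG replicate 3 and 1.09 to 1.81 on the other 8 arrays. *Cox7a2l*, a gene linked to supercomplexes of complexes III and IV, differed by 0.16 (SE 0.14) between IF1-TG and CRL mice and -0.01 (SE 0.14) between IF1-KO and CRL mice. Whether its product joins these complexes in the mice used here was not tested.

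Other genes of the respiratory chain were read from lists set up apart from the 40 genes. The 5 measured complex III assembly factors, 15 further complex IV assembly factors, 4 complex II subunits, 16 ATP synthase subunits and 12 regulators of respiratory chain genes held 0 called genes in all 3 comparisons, and lists this short hold few at the shares called over all genes. Of 36 complex I subunits, *Ndufa13* (0.61, SE 0.14) and *Ndufs8* (0.71, SE 0.21) were called higher in IF1-TG than in CRL mice, which is 2 of 36 beside the 4.32% of all genes called there, and 0 were called in the other comparisons. The median log2 difference between IF1-TG and CRL mice was 0.05 for complex I, -0.01 for complex II and 0.12 for the ATP synthase, beside -0.01 for the 38 genes of complexes III and IV.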

How the data were processed

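RNA of 9 hippocampi (3 IF1-KO, 3 CRL and 3 IF1-TG mice) was hybridized to one-colour Agilent mouse arrays, 1 mouse each. The authors deposited spot intensity values of Agilent Feature Extraction 10.7.3.1, background-subtracted within each array and without normalization between arrays, so scaling is a choice made here. The submitters' processing notes name limma. Processed signals were taken to log2 minus the 75th percentile of the array, outlier spots were removed, spots of a probe averaged, and 27993 of 39429 probes kept, each clearly above background on every array (3) of some genotype. No spot was saturated. limma 3.58.1 in R 4.3.3 fitted genotype over 9 arrays, with Benjamini-Hochberg adjustment over all kept probes, and was tested on simulated data. Thresholds were a 1.5-fold change and an unadjusted *P* below 0.05. Array values are given for genes with *P* below 0.05 in a comparison and for *Cox4i1*, *Cox6b1*, *Uqcrc2* and *Uqcrfs1*, and further genes were chosen after their values were seen. Genes and lists were chosen with earlier results of these data known. Alternatives covered background correction, quantile normalization, dim-probe filters, slide, replicate number, variance model, probes per gene and left-out arrays.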

Additional observations from a re-analysis of the deposited data

How the results depend on the processing

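The number of genes called between IF1-TG and CRL mice, 1 in the main setting, was 2 with normexp and quantile normalization (with *Cycs*), with no filter on dim probes (with *Cox17*), with the slide as a fixed block (with *Cox20*) and without the 3 arrays high in choroid plexus markers, which was added after seeing the data (with *Cox16*), and 0 with probes above background on all 9 arrays, where *Cox7b2* was not tested. In these settings 2% to 11.8% of all genes were called. Leaving out each array in turn gave 1 to 2. Between IF1-TG and IF1-KO mice it was 3 with normexp and quantile normalization (*Cox7a2*, *Cox7b* and *Cox7b2*), 2 with only the 2 genotypes compared, with quantile normalization and with the slide as a fixed block, and 0 with probes above background on all 9 arrays, and 1 to 4 with each array left out (2.04% to 4.79% of all genes in the settings with all arrays). Between IF1-KO and CRL mice it was 0 to 1 with each array left out. Shares of all genes for the left-out arrays named in the results above stand there beside the counts. At an unadjusted *P* below 0.05 alone, the count between IF1-TG and CRL mice, 2 in the main setting, was 1 with the mean of the probes, 4 with normexp and quantile normalization, 0 with probes above background on all 9 arrays, 5 with the slide as a fixed block and 1 to 5 with each array left out (6.5% to 10.4% of all genes in the settings with all arrays). Against IF1-KO mice, where it was 3 in the main setting, it was 1 with the mean of the probes, 5 with normexp and quantile normalization, 1 with probes above background on all 9 arrays, 1 without the 3 arrays high in choroid plexus markers and 2 to 7 with each array left out (3.55% to 6.85% of all genes in the settings before these). Between IF1-KO and CRL mice it was 0 to 3 with each array left out. Genes whose arrays did not overlap came to 7 in place of 2 (IF1-KO and CRL) and 12 in place of 7 (IF1-TG and IF1-KO) without IF1-KO replicate 1, a setting added after seeing the data. The median difference between IF1-TG and CRL mice was -0.059 with quantile normalization and 0.071 without those 3 arrays, and between IF1-KO and CRL mice it ranged from -0.044 to 0.02 with each array left out. The medians of all genes under these choices are not given beside them, so a shift shared by all genes is not set apart. *Cycs* and *Uqcrq* missed a *P* of 0.05 in several settings, whereas *Cox7b2* did not in any in which it was tested. The replicate numbers do not pair the arrays (correlations of deviations from -0.166 to 0.117), and a replicate block left the count of called genes at 1 (IF1-TG and CRL, 4.12% of all genes), 0 (IF1-KO and CRL, 1.18%) and 1 (IF1-TG and IF1-KO, 3.74%) and moved the *P* of *Uqcrq* between IF1-TG and IF1-KO mice to 0.0581. The cause of these shifts was not tested. Dim probes limit *Cox7b2*, *Cox17* and *Cox8c*.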
